A study of Mus musculus with 9 samples.

Results

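The genes examined are 10 regulators and markers of spermatogonia, the mitotic germ cells at the base of the seminiferous tubule: Zbtb16, Gfra1, Nanos2, Nanos3 and Uchl1, which mark stem and undifferentiated spermatogonia, and Dmrt1, Sohlh1, Sohlh2, Kit and Stra8, which act in differentiation. They were chosen by name, and all 10 were among the 23074 genes of the count table. A test across genes was made for 15613 genes, which included 9 of the 10; Nanos2 had too few counts.

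Spermatogonial stem cells either renew themselves or give rise to differentiating cells. Sertoli cells secrete GDNF, which is received by the co-receptor GFRA1 and the kinase RET and maintains the undifferentiated state. Retinoic acid and KIT ligand drive differentiating cells forward, and a later pulse of retinoic acid induces Stra8 at the entry into meiosis. RFX2, a DNA-binding regulator of the winged helix type, is known in the testis for its role in later germ cells, the spermatocytes and spermatids.

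RNA-seq was performed on whole testes, freed of the tunica, of 5 wild type and 4 Rfx2-/- mice at postnatal days 29 to 30 (P30). Each animal gave 1 library. In Rfx2-/- mice exon 7, which encodes most of the DNA binding domain, is missing from all cells. The exon was floxed in R1 embryonic stem cells (129/Sv) and removed by crossing to an FVB/N strain with a general ACTB-cre transgene. The loss is therefore not restricted to germ cells, and Rfx2-/- males are sterile. The study reports that their spermatids arrest completely before they elongate. Both genotypes shared a mixed background of C57BL/6, 129/Sv and FVB/N, and per the methods the mixed line kept the neo selection cassette in its targeted allele. The comparison asks whether the spermatogonial genes differ in amount between testes with and without RFX2. In bulk tissue, fewer cells of a type and less RNA per cell cannot be told apart.

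Total counts were between 13574764 and 15193330 in 8 libraries and 28800855 in Rfx2-/- replicate 1. Levels are given as CPM, counts scaled to a common library total with TMM factors, with all values listed in the order of replicates 1 to 5 (wild type) and 1 to 4 (Rfx2-/-). Rfx2 itself averaged 549 CPM in wild type testes against 146 CPM in the knockouts, without overlap. Reads from its remaining exons are still counted. Rfx2-/- replicate 2 stood apart from the other 3 in a way that followed gene length. On the log2 scale its median difference from them was 0.57 over 3724 tested genes with under 2 kb of exon and -0.64 over 3851 genes over 5 kb. Results that rest on it are given with and without it. Markers of Sertoli, Leydig, peritubular, immune and later germ cells were all above 0 counts in every library. The summed CPM of 14 elongating spermatid markers was 12373 in wild type replicate 3, 18114 to 24088 in the other wild types and 10400 to 14302 in Rfx2-/-. That of 9 macrophage markers was 117 to 158 in wild type, 278 in Rfx2-/- replicate 2 and 135 to 169 in the other knockouts. Wild type replicate 3 thus also stood apart, and it was the highest wild type for 10 of 12 Sertoli cell markers and for 7 of the 10 spermatogonial genes. Over all genes tested it was the highest wild type for 4259 of 15613. The summed CPM of the 10 spermatogonial genes was 198 in wild type replicate 3, 168 to 183 in the other wild types, 232 in Rfx2-/- replicate 2 and 159 to 204 in the other knockouts. The part of these other markers in the results below was not tested.

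Calls required both a change of over 2-fold and an adjusted p at or under 0.01 (edgeR's quasi-likelihood test, Benjamini-Hochberg over all 15613 genes). In Rfx2-/- testes this held for 575 genes with a lower level (3.68% of those tested) and 129 with a higher one (0.826%), and 1686 (10.8%) had an adjusted p at or under 0.05 in either direction. An unadjusted p under 0.05 was found for 2143 lower and 2166 higher genes of the 15613. Among the 9 tested spermatogonial genes 0 were called, 0 had an adjusted p at or under 0.05 and 0 an unadjusted p under 0.05. The genotypes overlapped in all 10, including the untested Nanos2 with its 1 to 9 counts. Of all tested genes, 2476 (15.9%) had no overlap. With so few genes, these counts of 0 are not read as a trait of the spermatogonial genes. The median log2 fold change was 0.13 over the 9 genes and 0.03 over all genes tested, and over the 9 it was -0.01 without Rfx2-/- replicate 2 and 0.16 without wild type replicate 3. A p above the threshold does not show that a level was equal, so each gene is given with the 95% interval of its change.

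**Figure D1:**
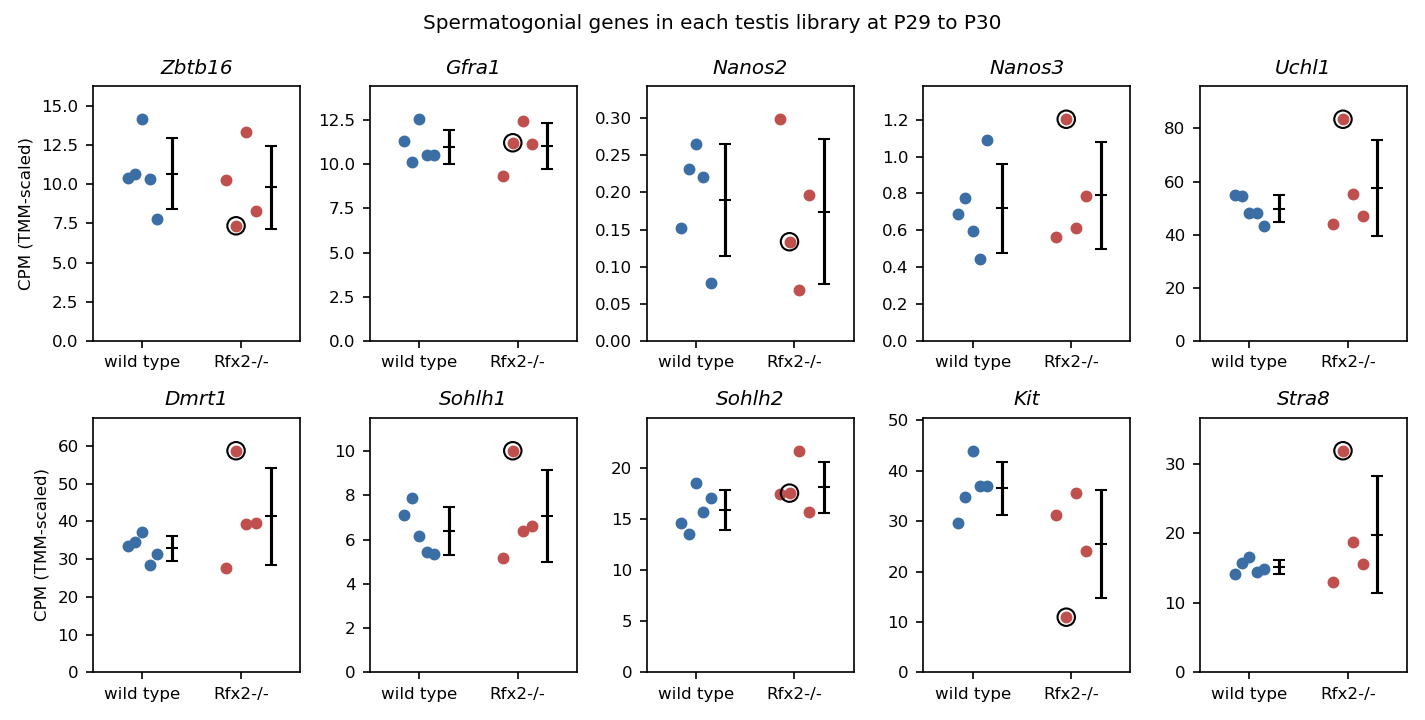
Level of each of the 10 genes in every library, in TMM-scaled CPM on axes that start at 0, with wild type in blue and Rfx2-/- in red. Points are libraries in replicate order, bars to the right are the mean ± SD (n = 5 and n = 4) and the circle marks Rfx2-/- replicate 2. The genotypes overlap in every panel, and the circled library is the highest point for Nanos3, Uchl1, Dmrt1, Sohlh1 and Stra8 and the lowest for Zbtb16 and Kit.

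Zbtb16 (ENSMUSG00000066687, chr9:48654297-48836222, minus strand, GRCm38) encodes PLZF, a zinc finger repressor needed for the upkeep of the stem cell pool. Its level was 10.4, 10.7, 14.1, 10.3 and 7.79 CPM in wild type and 10.3, 7.35, 13.3 and 8.30 CPM in Rfx2-/-. The knockouts lay almost wholly within the wild type range, with Rfx2-/- replicate 2 just below it. On the log2 scale the fold change was -0.12 (SE 0.21, adjusted p = 0.743, edgeR), with a 95% interval of 0.666 to 1.27 for the fold.

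Gfra1 (ENSMUSG00000025089, chr19:58235604-58455909, minus strand) encodes the GDNF co-receptor. It was at 11.3, 10.1, 12.6, 10.5 and 10.5 CPM in wild type and at 9.32, 11.2, 12.5 and 11.2 CPM in Rfx2-/-. The means were 11.01 ± 0.963 (SD, n = 5) and 11.05 ± 1.29 CPM (SD, n = 4), which is 100% of wild type. The log2 fold change was 0.00 (SE 0.15, adjusted p = 0.996, edgeR), and the interval of the fold, 0.803 to 1.25, was the narrowest of the 9 genes on the log2 scale. In the annotation 416 bases of its exons overlap the antisense gene Gm16277, whose reads could be counted with it if strand was not used.

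Nanos2 (ENSMUSG00000051965, chr7:18987400-18988962, plus strand) encodes an RNA-binding protein that holds stem cells undifferentiated. It had 2, 3, 4, 3 and 1 counts in wild type and 9, 2, 1 and 3 counts in Rfx2-/-, so that 4 of 5 and 3 of 4 libraries were at or under 3 counts. The pooled levels were 0.193 CPM (13 counts, exact Poisson interval 0.103 to 0.329) and 0.1997 CPM (15 counts, 0.112 to 0.329). A difference was not detectable at this depth, and these intervals cover counting error only. An antisense gene, Gm45058, overlaps 766 bases of the single exon.

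Nanos3 (ENSMUSG00000056155, chr8:84173731-84185217, minus strand), a paralog that is first needed for the survival of primordial germ cells, was also low. It was at 0.688, 0.774, 0.598, 0.442 and 1.09 CPM in wild type and at 0.564, 1.20, 0.613 and 0.784 CPM in Rfx2-/-. The highest knockout value belonged to replicate 2, and without it the 3 others lay within the wild type range. The log2 fold change was 0.11 (SE 0.34, adjusted p = 0.851, edgeR) with all libraries and -0.15 without that one. With 6 to 18 counts per library, the interval of the fold was the widest of the set, 0.648 to 1.81.

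Uchl1 (ENSMUSG00000029223, chr5:66676091-66687234, plus strand) encodes the ubiquitin hydrolase also known as PGP9.5, a protein marker of spermatogonia. Its level was 55.1, 54.4, 48.2, 48.3 and 43.3 CPM in wild type and 43.8, 83.4, 55.4 and 46.9 CPM in Rfx2-/-. Replicate 2 was 1.71 times the mean of the other knockouts, which were close to the wild type values. Fitted to all libraries, the log2 fold change was 0.20 (SE 0.19, adjusted p = 0.502, edgeR) and became -0.03 (adjusted p = 0.889) without that library. An antisense gene, Uchl1os, overlaps 244 bases of its exons.

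Dmrt1 (ENSMUSG00000024837, chr19:25505618-25604329, plus strand) encodes a DM domain factor that in spermatogonia restrains the entry into meiosis. It is also made in Sertoli cells. Its level was 33.4, 34.4, 37.1, 28.4 and 31.2 CPM in wild type and 27.8, 58.7, 39.2 and 39.6 CPM in Rfx2-/-. Replicates 2, 3 and 4 were above all wild types and replicate 1 was below them all. A log2 fold change of 0.33 was fitted (SE 0.19, adjusted p = 0.286, edgeR), with an interval of 0.939 to 1.67 for the fold, and it was 0.11 without replicate 2. Without replicate 1 it was 0.51, with the lowest adjusted p of any of the 9 genes in any fit, 0.062.

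Sohlh1 (ENSMUSG00000059625, chr2:25842995-25847248, minus strand) and Sohlh2 (ENSMUSG00000027794, chr3:55182028-55209957, plus strand) encode basic helix-loop-helix partners that start differentiation and act upstream of Kit. Sohlh1 was at 7.10, 7.89, 6.18, 5.45 and 5.38 CPM in wild type and at 5.18, 10.02, 6.40 and 6.60 CPM in Rfx2-/-. Sohlh2 was at 14.7, 13.5, 18.6, 15.8 and 17.1 CPM in wild type and at 17.5, 17.6, 21.7 and 15.8 CPM in Rfx2-/-. Replicate 2 was the highest library for Sohlh1 and between the other knockouts for Sohlh2. For Sohlh1 the log2 fold change was 0.13 (SE 0.21, adjusted p = 0.714, edgeR) and turned to -0.09 without replicate 2. That of Sohlh2 was 0.19 (SE 0.15, adjusted p = 0.444, edgeR) and was 0.20 without it. The intervals of the fold were 0.794 to 1.51 and 0.906 to 1.43.

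Kit (ENSMUSG00000005672, chr5:75574916-75656722, plus strand) encodes the receptor of KIT ligand and marks differentiating spermatogonia, but it is also transcribed in Leydig cells and, in a short form, in spermatids. Its level was 29.6, 34.8, 44.0, 37.1 and 37.1 CPM in wild type and 31.2, 10.96, 35.7 and 24.1 CPM in Rfx2-/-. Replicates 2 and 4 were below all wild types, and replicates 1 and 3 lay among them. The means were 36.5 ± 5.18 (SD, n = 5) and 25.5 ± 10.8 CPM (SD, n = 4), or 69.8% of wild type, the lowest share of the 10 genes. The log2 fold change was -0.52 (SE 0.27, adjusted p = 0.237, edgeR), with an interval of 0.463 to 1.05 for the fold. It was -0.27 (SE 0.15, adjusted p = 0.266) without replicate 2 and -0.41 (adjusted p = 0.172) when the trend on gene length was removed from each library. Its interval was the only one of the 9 that included a 2-fold decrease.

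Stra8 (ENSMUSG00000029848, chr6:34920163-34939344, plus strand) is induced by retinoic acid and is needed for the start of meiosis. Its level was 14.1, 15.7, 16.6, 14.4 and 14.9 CPM in wild type and 12.9, 31.9, 18.7 and 15.6 CPM in Rfx2-/-. Replicate 2 held 2.02 times the mean of the other knockouts. The log2 fold change of 0.38 (SE 0.23, adjusted p = 0.299, edgeR) was the highest of the 9 and was 0.05 (adjusted p = 0.854) without that library.

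**Figure D2:**
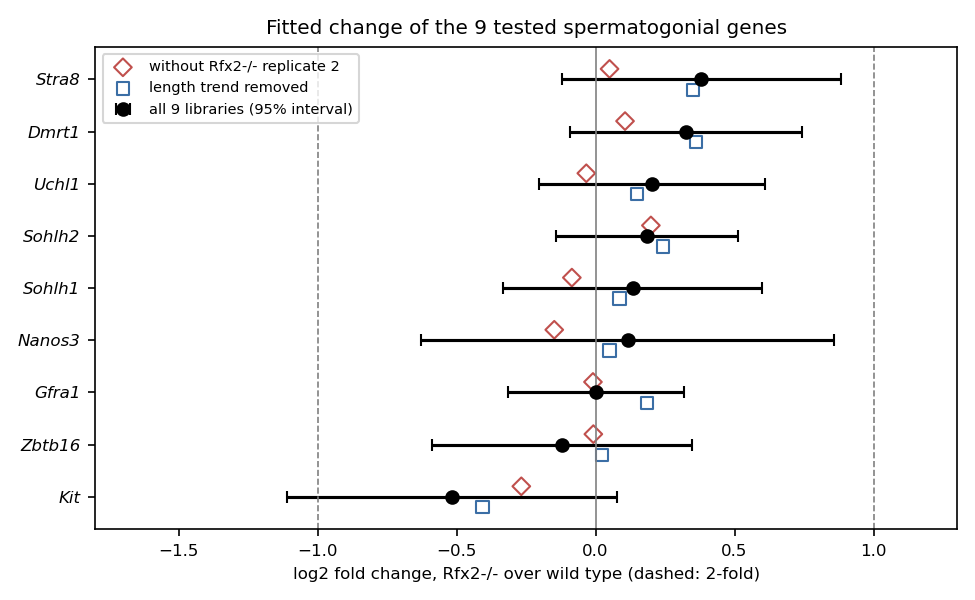
Fitted log2 fold change of Rfx2-/- over wild type for the 9 tested genes, with 95% intervals from all 9 libraries (black), and the estimates without Rfx2-/- replicate 2 (red diamonds) and with the length trend removed (blue squares). Every interval includes 0, and only that of Kit reaches a 2-fold change (dashed lines), while the diamonds of all 9 genes lie between -0.27 and 0.20.

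An exact two-sided permutation test of log2(CPM + 0.5), 1 gene at a time over 126 arrangements of the libraries, gave p = 0.111 for Kit, 0.190 for Sohlh2, 0.222 for Dmrt1, 0.333 for Stra8 and more for the others. The smallest p this design allows is 0.016. In all fits tried, 0 of the 9 genes were called.

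The deviation of Rfx2-/- replicate 2 moved with exon length among the spermatogonial genes as among all genes. On the log2 scale it differed from the other knockouts by 1.01 for Stra8 (1803 bases), 0.78 for Uchl1 (1177 bases), 0.69 for Sohlh1 (1289 bases) and 0.57 for Nanos3 (730 bases). Dmrt1, with 2340 bases, differed by 0.74. The longest genes were at 0.04 for Gfra1 (5390 bases), -0.48 for Zbtb16 (5283 bases) and -1.41 for Kit (5253 bases). These 3 genes have almost the same length and span more than a log2 unit, and Sohlh2 (2364 bases) was at -0.05 beside Dmrt1 of nearly equal length. The part of RNA quality in this was not tested.

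**Figure D3:**
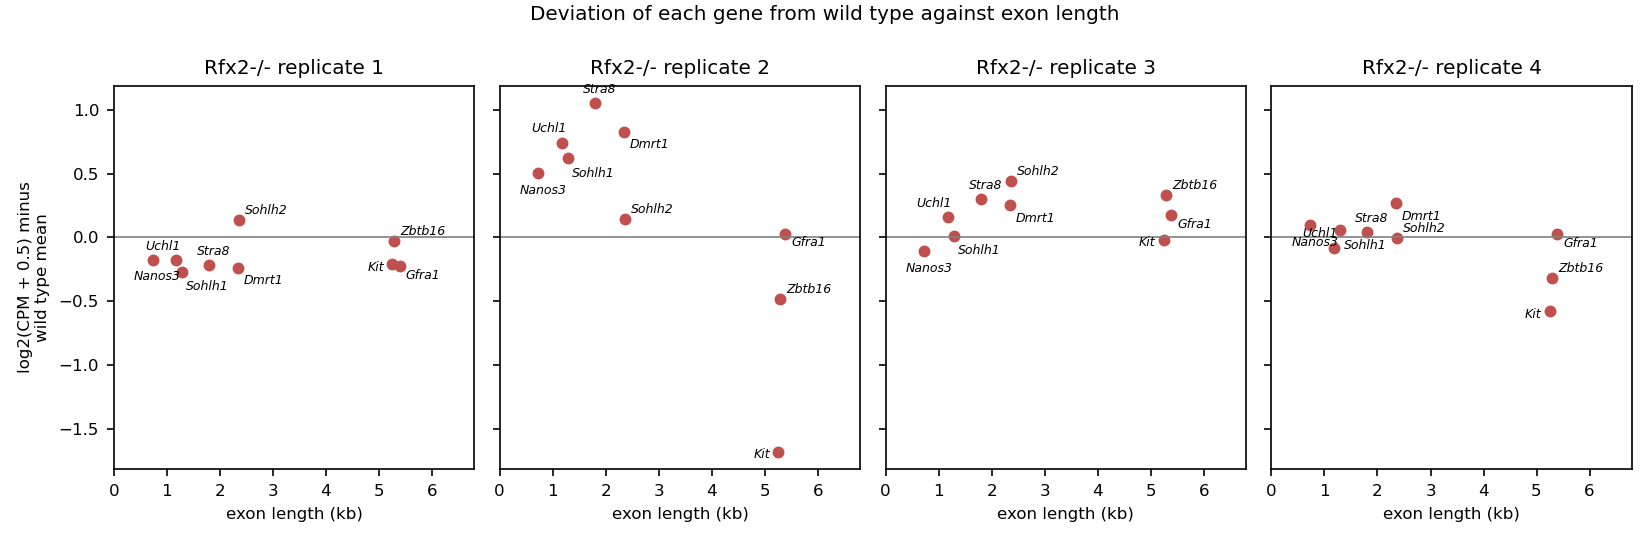
Difference of each tested gene from its wild type mean, on the log2(CPM + 0.5) scale, against exon length in kb, in the 4 Rfx2-/- libraries. In replicate 2 the genes under 2 kb lie above 0 and Kit is the lowest point, while in replicate 1 all genes but Sohlh2 lie below 0.

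Compared per kb of exon, so that genes can be set side by side, the wild type levels ran from 42.3 ± 4.16 CPM per kb for Uchl1 to 0.121 ± 0.048 for Nanos2 (mean ± SD, n = 5). Dmrt1 followed at 14.1 ± 1.404, Stra8 at 8.40 ± 0.565, Kit at 6.95 ± 0.987, Sohlh2 at 6.74 ± 0.839 and Sohlh1 at 4.97 ± 0.843 CPM per kb. Gfra1 was at 2.04 ± 0.179, Zbtb16 at 2.02 ± 0.430 and Nanos3 at 0.984 ± 0.331 CPM per kb. The wild type ranges of Stra8 and Kit, of Kit and Sohlh2, of Sohlh2 and Sohlh1, of Gfra1 and Zbtb16 and of Zbtb16 and Nanos3 overlapped, so these neighbours were not ordered beyond their spread. The 5 differentiation genes were all above Gfra1, Zbtb16, Nanos3 and Nanos2, and Uchl1 was the exception among the stem cell group. In Rfx2-/- the order was the same except that Kit, at 4.85 ± 2.06 CPM per kb (n = 4), came after Sohlh2 at 7.67 ± 1.07 and Sohlh1 at 5.47 ± 1.61. Without Rfx2-/- replicate 2 Kit was at 5.77 ± 1.12 and Sohlh1 at 4.70 ± 0.599 CPM per kb (n = 3), so the place of Kit below Sohlh1 rests on that library. The exon lengths are of GENCODE M21, and the counting used Ensembl release 70.

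Across the libraries, with the mean of each genotype removed, 22 of the 36 pairs among the 9 genes had a correlation above 0 over 9 libraries and 26 of 36 over the 8 without Rfx2-/- replicate 2. The highest pair without that library was Sohlh2 with Kit (r = 0.84), followed by Dmrt1 with Stra8 (r = 0.82), and the lowest was Zbtb16 with Nanos3 (r = -0.62). Over all 9 libraries the highest pair was Dmrt1 with Stra8 (r = 0.93) and the lowest Uchl1 with Kit (r = -0.81), while Sohlh2 with Kit was at 0.43. These are descriptions over few libraries that share depth and composition. The share of pairs above 0 among all tested genes was not computed, so the counts are not read as a trait of the 9 genes. Of all tested genes outside the lists, those that followed the mean of the 9 genes most closely were Tspan14 (r = 0.991 over 9 libraries), Tmem204 (r = 0.986), Hoxd9 (r = 0.985), Lpar3 (r = 0.982), Ube2l6 (r = 0.977) and Pex19 (r = 0.971). Without Rfx2-/- replicate 2 their correlations were 0.961 to 0.993.

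None of the 10 genes was on the list of promoters occupied by RFX2 in chromatin immunoprecipitation at P21, an earlier age. That experiment used dissociated germ cells of wild type mice. The same list held 0 of the 23 other genes of undifferentiated spermatogonia. It held 2 of 14 meiotic prophase markers and 2 of 14 elongating spermatid markers. The share over all genes was not worked out, so 0 of 10 is not read as a lack of binding. Upstream sequences (RefSeq, GRCm38.p6, 250 bases before the start) were at hand for 8 of the 10 genes. They were searched on both strands for an RFX half-site (GTTGCC or GTTACC), a retinoic acid receptor half-site (AGGTCA) and 1 form of the E-box (CACGTG). E-boxes are the kind of motif that basic helix-loop-helix factors such as SOHLH1 and SOHLH2 read, and their other forms were not searched. An RFX half-site was present in 1 of the 8, Nanos2, and in 15.7% of the 32851 promoters searched. AGGTCA was present in Sohlh1 and Stra8 and in 14.0% of all, and CACGTG in Sohlh1 and in 6.02% of all. The sequences that carry these matches are shown, 5′ to 3′ on the strand of the gene, with the motifs in capitals. Several of the 250-base windows reach into annotated exons of the gene itself. The overlap was 188 bases for Gfra1, 124 for Nanos2, 71 or 75 for Kit, 30 for Uchl1 and 16 for Sohlh2. For Nanos2 the stretch shown ends where the first annotated exon begins. The Stra8 window lies within an exon of its longer annotated isoform, so only the surroundings of the motifs are given.
Nanos2 (chr7:18987274-18987399, plus strand): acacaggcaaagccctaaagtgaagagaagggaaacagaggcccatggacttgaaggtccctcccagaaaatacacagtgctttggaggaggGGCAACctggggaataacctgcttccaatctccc
Sohlh1 (chr2:25847249-25847498, minus strand): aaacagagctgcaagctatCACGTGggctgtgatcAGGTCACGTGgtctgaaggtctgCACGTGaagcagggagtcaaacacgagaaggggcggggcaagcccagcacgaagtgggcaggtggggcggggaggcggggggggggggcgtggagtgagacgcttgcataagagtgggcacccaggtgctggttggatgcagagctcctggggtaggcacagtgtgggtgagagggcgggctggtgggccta
Stra8, distal (chr6:34920744-34920769, plus strand): tggggtgaaaAGGTCAtcttgctcct
Stra8, proximal (chr6:34920900-34920925, plus strand): ctggggtaccAGGTCAgttttttacc
Distances are to the start of the RefSeq entry, which for Nanos2 lies 124 bases beyond the end of the stretch shown. The Nanos2 match starts 158 bases before that start and is on the opposite strand. The CACGTG matches of Sohlh1 start at 231, 211 and 192 bases before the start, and its AGGTCA at 215 overlaps the middle one. The matches of Stra8 start at 194 and 38 bases before the start. A match is a description of letters and not a binding site. Zbtb16 and Dmrt1 were not searched.

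Around the 10 genes, 5 lists of related genes were examined. Of 23 other genes of undifferentiated spermatogonia 19 were tested, 1 was called lower and 0 higher, with a median log2 fold change of -0.13. The gene called was Bcl6b, a GDNF-responsive repressor, at 4.13, 3.71, 5.25, 3.68 and 4.36 CPM in wild type and 2.42, 1.20, 2.38 and 1.63 CPM in Rfx2-/-. Its genotypes did not overlap, and the log2 fold change was -1.13 (SE 0.24, adjusted p = 0.009, edgeR). Over the 9 fits that left out 1 library the change was -1.25 to -0.96, and the call was lost in 8 of them, all but that without Rfx2-/- replicate 1. Utf1, at 1.78 ± 0.574 and 0.887 ± 0.296 CPM, had the next largest change (-1.01, adjusted p = 0.055). The most abundant per kb were Bmi1, a Polycomb protein, at 119 ± 14.5 and 95.1 ± 22.4 CPM, and Id4, an inhibitor of helix-loop-helix factors, at 40.4 ± 2.95 and 45.7 ± 16.9 CPM. Their log2 fold changes were -0.33 (adjusted p = 0.229) and 0.18 (adjusted p = 0.592), and without Rfx2-/- replicate 2 they were -0.50 (adjusted p = 0.012) and -0.11. The median of this list was -0.22 without that library and -0.01 without wild type replicate 3.

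Of 10 other genes of differentiating spermatogonia and meiotic entry all were tested, 0 were called and 0 had an adjusted p at or under 0.05, with a median of 0.14. Dmrtb1, a DM domain factor of the transition from mitosis to meiosis, was at 684 ± 90.1 CPM in wild type and 573 ± 107 in Rfx2-/-. Dazl, a germ cell RNA-binding protein, was at 222 ± 15.8 and 260 ± 54.7 CPM. The largest changes were 0.63 for Ccnd2, a cyclin of the transition to A1 spermatogonia (adjusted p = 0.128), and 0.56 for Rhox13 (adjusted p = 0.307). In Rfx2-/- replicate 2 Rhox13 reached 12.9 CPM, where the other knockouts lay at 4.05 to 5.62 CPM, and its change was 0.053 (adjusted p = 0.916) without that library. Ccnd2 was at 0.85 (adjusted p = 0.0498) without wild type replicate 3.

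Of 18 genes of retinoic acid synthesis, breakdown and reception 16 were tested and 0 were called, with a median of -0.04. Rxra, the retinoid X receptor alpha, was at 54.1, 53.8, 42.0, 54.2 and 54.5 CPM in wild type and at 24.7, 22.5, 33.6 and 29.0 CPM in Rfx2-/-. It had no overlap and a log2 fold change of -0.91 (SE 0.15, adjusted p = 0.002, edgeR), just under the 2-fold limit. Aldh1a1 and Aldh1a2, which make retinoic acid, had log2 fold changes of 0.42 and -0.13 with adjusted p of 0.203 and 0.515, and that of Aldh1a1 was 0.22 without Rfx2-/- replicate 2.

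Of 12 niche ligands and receptors 11 were tested and 0 were called, with a median of 0.06. Kitl, the ligand of KIT, was at 27.5, 25.6, 26.2, 25.0 and 25.0 CPM in wild type and at 28.1, 52.2, 44.2 and 42.9 CPM in Rfx2-/-. All knockouts were above all wild types, replicate 1 only just, and the log2 fold change was 0.69 (SE 0.17, adjusted p = 0.018, edgeR) and 0.57 (adjusted p = 0.014) without replicate 2. Without wild type replicate 2, 4 or 5 the adjusted p was 0.0519, 0.0521 and 0.0534, above the limit of 0.05. Wnt6 was at 21.1 ± 1.14 and 24.7 ± 8.15 CPM. The largest changes beside Kitl were -0.86 for Nrtn, a GDNF relative (adjusted p = 0.089), and 0.77 for Cxcr4, a chemokine receptor (adjusted p = 0.094). Without Rfx2-/- replicate 2 they were -1.15 (adjusted p = 0.01007) and 0.49 (adjusted p = 0.187). With the length trend removed they were -0.93 (adjusted p = 0.024, edgeR) and 0.74 (adjusted p = 0.0455). Without Rfx2-/- replicate 1 they were -0.69 (adjusted p = 0.146) and 1.02 (adjusted p = 0.011).

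Of 18 paralogs of the spermatogonial genes 16 were tested, 1 was called lower and 0 higher, with a median of 0.02. Dmrtb1, described above, was also on this list. Gfra4, a co-receptor of the family of Gfra1, was at 22.7, 22.2, 21.3, 17.7 and 22.05 CPM in wild type and at 6.40, 7.35, 5.04 and 5.69 CPM in Rfx2-/-. Every knockout was far below every wild type, the log2 fold change was -1.79 (SE 0.16, edgeR), and it was called in every fit. Gfra1 in the same libraries stood at 100% of wild type. Dmrta2, a DM domain gene like Dmrt1, was higher by 1.08 on the log2 scale (SE 0.25, adjusted p = 0.015, edgeR), from 10.98 ± 2.57 to 23.3 ± 8.12 CPM, and did not pass the limit of 0.01. Uchl3, related to Uchl1, was at 63.8 ± 5.20 and 85.0 ± 30.5 CPM, with 126 CPM in replicate 2, and its log2 fold change of 0.41 was 0.16 without that library.

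**Figure D4:**
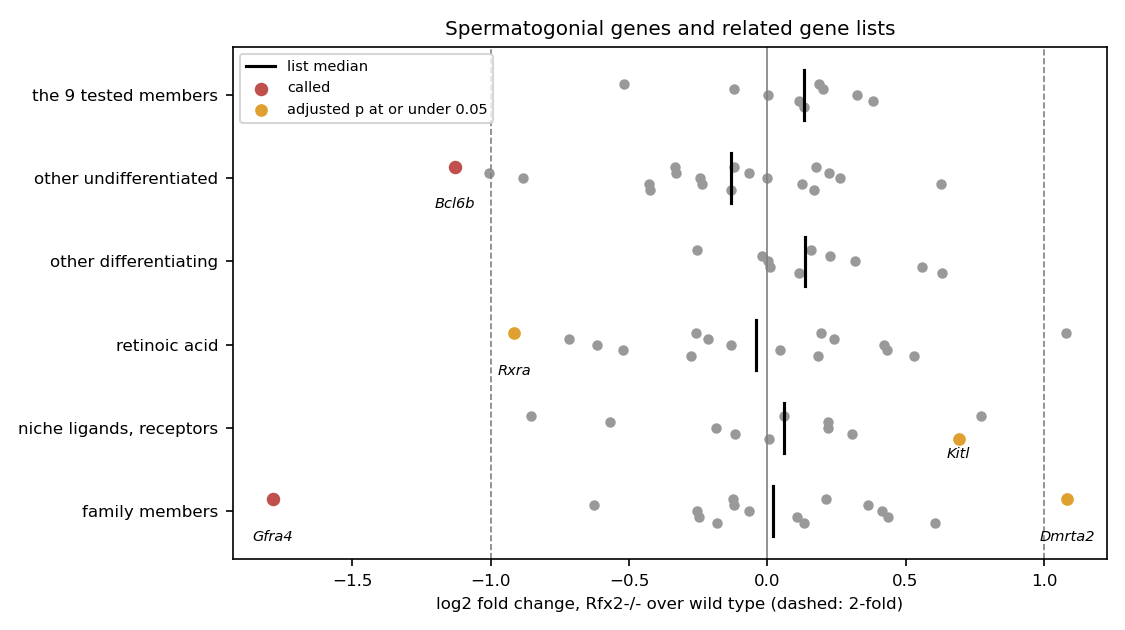
Log2 fold change of Rfx2-/- over wild type for the tested genes of each list, with 1 point per gene, the list median as a black bar and 2-fold changes as dashed lines. Red points are called genes (Bcl6b and Gfra4), orange points have an adjusted p at or under 0.05 without being called (Rxra, Kitl and Dmrta2), and the 9 spermatogonial genes in the top row hold neither.

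Beside the spermatogonial genes, the later germ cells showed medians of 0.32 over 14 markers of meiotic prophase and -0.76 over 14 markers of elongating spermatids. These medians were 0.22 and -0.80 without Rfx2-/- replicate 2 and 0.40 and -0.85 without wild type replicate 3. Of the prophase markers 11 were above 0 and 3 below, the lowest being Stag3 (-0.56, adjusted p = 0.225, edgeR). At adjusted p at or under 0.05, 2 were higher, Sycp2 (0.74, adjusted p = 0.044) and Smc1b (0.62, adjusted p = 0.043), and 0 were called. Over the alternative fits the adjusted p of these 2 reached 0.111 and 0.118. Of the elongating spermatid markers, 6 had a lower level at adjusted p at or under 0.05 and 1, Tekt4, was called. Because the study reports an arrest before elongation, RNA of these markers in Rfx2-/- testes is not read as a number of elongating cells. Sertoli cell markers had a median of 0.12 (12 genes, with Amh higher at 0.92, adjusted p = 0.015), Leydig cell markers 0.19, peritubular markers 0.13, round spermatid markers 0.27 and macrophage markers 0.54. Without Rfx2-/- replicate 2 these medians were 0.15, -0.13, 0.17, 0.12 and 0.13, so that the sign of the Leydig list turned.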

How the data were processed

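The authors deposited raw read counts per gene, whole numbers without normalisation, for 9 testis libraries. According to their methods and processing notes, reads from TruSeq libraries were sequenced on a HiSeq instrument (CASAVA 1.8.2), mapped to GRCm38 (Ensembl 70) with STAR 2.4 and counted with featureCounts 1.4.6 over merged exons, and reads with several positions or in exons of different genes were left out. Read length is stated as 50 and as 46 bases, a second aligner is named, and the use of strand is not given in the sources used here. Reads of antisense genes could therefore be counted with a gene.

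Names were taken from GENCODE M21 (96.6% of IDs matched). Groups came from the genotype labels. The labels give no litter or shared number, so animals were not paired, although littermates may be among them. Counts were tested with the quasi-likelihood test of edgeR 4.0.16 (R 4.3.3, TMM, filterByExpr, robust), genotype as the single factor. The 9 mice are separate animals. The 2-fold and 0.01 limits were taken from the study, which used DESeq and does not state that its p was adjusted; here the adjusted p was used. Levels are CPM, mean ± SD, and 95% intervals come from the fitted error. On simulated data, 95 of 99 genes changed by 2 on the log2 scale, 90 of 100 changed by 1.5 and 0 of 15201 unchanged genes were called (15400 genes run). Smaller changes were not simulated, and genes as low as Nanos3 were not among those changed. The simulation also held no shift with gene length as in Rfx2-/- replicate 2. These shares therefore do not show how often changes of the size fitted for the spermatogonial genes would be found. Alternatives were DESeq2 1.42.0, other scalings, no filter, a loess trend on exon length removed, other limits and leaving out each library.

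The members and gene lists were chosen with earlier results of these data known. All 10 members are named. Of the other lists, the named genes are those called or at adjusted p at or under 0.05, the 2 of highest CPM per kb and the 2 of largest change; 1 result under this rule is not reported here. The 6 genes most like the members were named by correlation.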

Additional observations from a re-analysis of the deposited data

Results flagged for a closer look

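In groups of 4 or 5 libraries, 1 value was far from the others in 7 of the 60 groups examined (30 genes in both genotypes). It was so in 0 of the 20 groups of the 10 spermatogonial genes. Distance was the gap to the nearest value as a share of the range. Chance would give about 3 of 60 in independent groups. These groups share the same 9 libraries, and most of the other genes were picked by level, change or p, so no excess is read from the counts. In Rfx2-/- replicate 2, Id4 was at 70.9 CPM, where the other knockouts were at 35.2 to 39.4 CPM. In Rfx2-/- replicate 4, Dmrtb1 was at 732 CPM, against 503 to 542 CPM, and in Rfx2-/- replicate 3 Aldh1a2 was at 122 CPM, against 145 to 147 CPM. Among wild types, Utf1 was at 2.79 CPM in replicate 2, against 1.402 to 1.73 CPM. In wild type replicate 3, Ccnd2 was at 27.5 CPM, against 14.3 to 18.0 CPM, and Rxra at 42.0 CPM, against 53.8 to 54.5 CPM. Gfra4 was at 17.7 CPM in wild type replicate 4, against 21.3 to 22.7 CPM. The causes were not tested.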

How the results depend on the processing

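None of the 9 tested genes was called under any alternative, but the sign of 5 of them changed. Zbtb16 was 0.00053 with total counts and 0.024 with the length trend removed, and Gfra1 was -0.0027 with DESeq2. Leaving out 1 library gave -0.27 to 0.042 for Zbtb16, -0.028 to 0.11 for Gfra1, -0.15 to 0.31 for Nanos3, -0.033 to 0.34 for Uchl1, -0.085 to 0.29 for Sohlh1, -0.11 to 0.31 for Id4 and -0.027 to 0.40 for Wnt6. Nanos3 missed the count filter without wild type replicate 2 or 5, so its range leaves out those fits. The median of those of the 9 genes tested in each fit was -0.01 to 0.29. The median of all genes was 0.03, and 0.16 with total counts and 0.13 with the length trend removed, so values under those 2 are read against it. Genes called lower were 1142 at adjusted p at or under 0.05 without a fold limit. Genes called higher were 211 with DESeq2, 544 at that limit and 262 with unadjusted p. Without 1 library they were 447 to 632 lower and 92 to 175 higher.

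Calls among the other undifferentiated genes were 0 with total counts, 0 without the filter, 2 with unadjusted p and 0 to 1 without 1 library. Those of the retinoic acid list were 1 at adjusted p at or under 0.05, 1 with unadjusted p and 0 to 1 without 1 library (1 without Rfx2-/- replicate 1), and the niche list had 1 at adjusted p at or under 0.05. The paralogs had 2 with total counts, without the filter, with the length trend removed, with DESeq2, at adjusted p at or under 0.05 and with unadjusted p, and 1 to 2 without 1 library, the second being Dmrta2. The causes were not tested. No paired analysis was possible because the labels give neither litters nor shared replicate numbers. Depth limits Nanos2 and Nanos3 most.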
